A study of Homo sapiens with 9 samples.

Results

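The comparison described here set U251 cells 7 days after infection with a lentivirus carrying an sh-RNA against PTBP1 (sh-Ptbp1-7d) against U251 cells 3 days after infection with a control sh-RNA directed at luciferase (sh-Luci-3d). U251 is an established human glioblastoma line. Its genes were the gene symbols with a mean of at least 1 FPKM over the 6 libraries of these groups, which were 11374 of the 19932 gene symbols measured. FPKM counts fragments for each kilobase of a transcript, relative to all fragments mapped in the library, and is thus a level per length. The gene nearest to the minimum on the inside was AL136295.1 with a mean of 1.0 FPKM, and the nearest on the outside was ESAM with 0.999 FPKM. The 3 libraries of sh-Ptbp1-3d, which carry the sh-RNA against PTBP1 at 3 days post infection (dpi), showed which of the differences were already present early. Every group was infected with lentivirus, and the study's methods then move infected cells, before 3 dpi, into neuronal induction medium, which holds the supplements N2 and B27, the adenylate cyclase activator forskolin and the BMP receptor and AMPK inhibitor dorsomorphin. That step is described for the reprogramming cultures, and whether the sequenced cells were handled in the same way is not stated in the sources used here. The sh-Ptbp1-7d cells therefore differed from the sh-Luci-3d cells in the sh-RNA, in the day and, where it was used, in the time spent in this medium, and sh-Luci cells at 7 dpi were not analysed here, so that the parts of these 3 in any difference between the 2 groups cannot be told apart. The sequencing addressed how the transcriptome moves once PTBP1 is reduced in glioblastoma cells that are turned towards a neural state.

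PTBP1, the polypyrimidine tract binding protein, is an RNA-binding protein that represses many neuronal exons in non-neuronal cells. It also represses its neuronal paralog PTBP2 through skipping of an exon of PTBP2, so that PTBP2 protein appears when PTBP1 is lost. Reducing PTBP1 has been used to push fibroblasts and glial cells towards neurons, in which proliferation stops and neuronal cytoskeletal, guidance and synaptic genes come up.

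The authors deposited FPKM values without read counts, and these carry no steps of whole reads, so the depth behind each value is unknown and counting error cannot be given an interval. FPKM summed over genes and assembled loci ranged from 367412 to 404922 over the 9 libraries. Shares of summed FPKM given below refer to the sum over gene symbols unless stated otherwise. Replicate 3 of sh-Luci-3d stood apart from its group. It differed from the other 2 sh-Luci-3d libraries in 10.1% and 10.8% of summed FPKM, while those 2 differed from each other in 3.19%. Replicate 3 of sh-Ptbp1-3d stood apart in neuronal genes. Of the 35 neuronal and 42 synaptic genes listed, 8 had over 1 FPKM and more than 3 times the level of any other library in it alone, among them STMN2 with 11.5 FPKM, STMN4 with 3.53 FPKM, DCX with 2.14 FPKM, INA with 1.84 FPKM and NEUROD2 with 1.83 FPKM, whose highest level in the other 8 libraries, 7 dpi included, was 0.0684 FPKM. The source of this RNA was not tested, and these genes were named after their values were seen. The labels do not say whether replicates were separate cultures, so p-values measure only the spread between these libraries, which may be technical. Differences were tested with limma on log2(FPKM + 0.1) over 15551 genes and assembled loci with all 9 libraries in one model, and for genes of low FPKM the pseudocount makes these fold changes smaller than those of the raw values. Since 0.1 is the smallest two-sided p that an exact permutation test of 3 libraries against 3 allows for a gene, limma's standard error (SE) and its Benjamini-Hochberg adjusted p are given.

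The whole shift was measured first as the share of summed FPKM that 2 libraries assign to different genes. Any sh-Luci-3d and any sh-Ptbp1-7d library differed in 25.7% to 27.6% of summed FPKM (9 pairs, median 26.6%). Any sh-Ptbp1-3d and any sh-Ptbp1-7d library differed in 25.5% to 26.9%. The sh-Luci-3d and sh-Ptbp1-3d libraries differed in only 5.03% to 8.17%, a range that lay inside the 3.19% to 10.8% found among the sh-Luci-3d libraries themselves. Without sh-Luci-3d replicate 3 the pairs of sh-Luci-3d and sh-Ptbp1-3d lay between 6.48% and 8.17%, above the 3.19% between the remaining sh-Luci-3d libraries and above the 2.92% to 3.48% within sh-Ptbp1-3d. Along the first principal component of the 11374 genes, which carried 76.1% of their variance, the sh-Ptbp1-7d libraries had scores between 57.3 and 57.8, the sh-Luci-3d libraries between -29.9 and -28.3, and the sh-Ptbp1-3d libraries between -29.5 and -26.6. The libraries of 3 dpi thus overlapped on this axis whichever sh-RNA they carried.

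**Figure D1:**
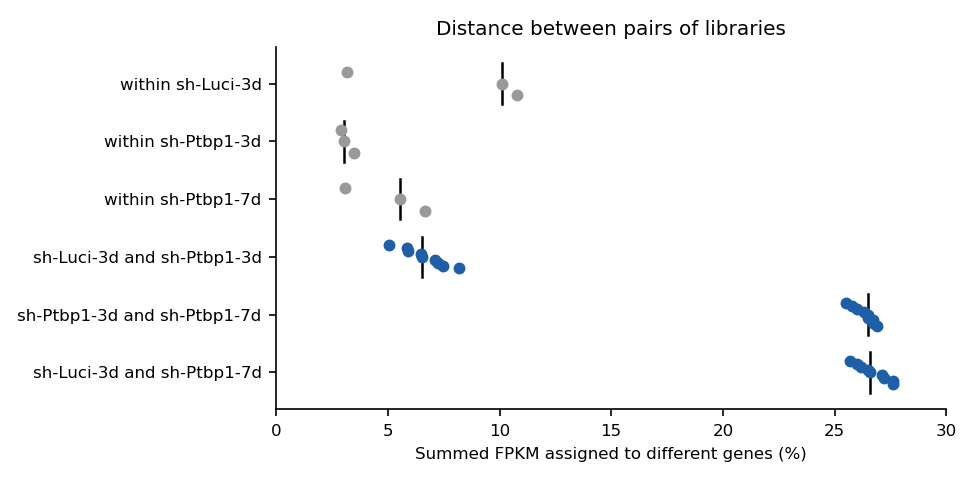
Share of summed FPKM assigned to different genes (x axis, percent) for every pair of libraries, grouped by row into pairs within a group (grey) and between groups (blue), with 1 point per pair and the median as a vertical bar. The pairs of sh-Luci-3d and sh-Ptbp1-7d sit between 25.7% and 27.6%, while the pairs of sh-Luci-3d and sh-Ptbp1-3d sit between 5.03% and 8.17%.

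Gene by gene, 1582 of the 11374 genes (13.9%) passed in sh-Ptbp1-7d against sh-Luci-3d, with thresholds of 2 for the fold change and 0.01 for the FDR. Of these, 939 were higher (8.26%) and 643 were lower (5.65%) in sh-Ptbp1-7d, so 59.4% of the calls were rises. With median-ratio scaling of the libraries 768 genes were higher and 798 lower, so that 49.0% were rises, and the balance of rises and falls therefore depends on the scaling. Among all 15551 genes and loci tested, 14.6% passed. Without the fold threshold 4731 of the 11374 genes (41.6%) passed, and those that were lower made up 18.0% of the 11374. For 6886 genes (60.5%) all libraries of one group lay above all of the other. The median absolute log2 fold change was 0.39. A fold change above 2 was reached by 1633 genes, above 4 by 340 genes and above 8 by 104 genes. For 10910 of the genes both groups had a mean of at least 1 FPKM, and 1294 of these (11.9%) passed. Another 317 genes reached 1 FPKM in sh-Ptbp1-7d alone and 147 in sh-Luci-3d alone. In bulk RNA, more or fewer cells of a kind and more or less RNA per cell cannot be told apart.

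The same genes were then read at 3 dpi. In sh-Ptbp1-3d against sh-Luci-3d, 1 of the 11374 genes (0.00879%) passed the thresholds, here 2 for the fold change and 0.05 for the FDR, and 4 genes (0.0352%) passed the FDR alone. The study reported many more genes for this comparison at these thresholds and does not name its test, so the count depends on the method. An unadjusted p under 0.05 was found for 825 genes (7.25%), and the libraries did not overlap for 1190 genes (10.5%). The median absolute log2 fold change was 0.10, and 49 genes exceeded a fold change of 2. Both comparisons share the sh-Luci-3d libraries, so their values are set side by side and not tested against each other. The 939 genes called higher at 7 dpi had a median log2 fold change of 1.43 at 7 dpi and of 0.07 at 3 dpi, where the middle 90% of them lay between -0.27 and 0.49. For the 643 genes called lower the medians were -1.36 and -0.01, and the middle 90% at 3 dpi lay between -0.35 and 0.30. Between the 2 days of sh-Ptbp1, 1539 genes (13.5%) passed the thresholds of the 7 dpi comparison, 884 of them higher and 655 lower.

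The targeted gene itself had most of its fall behind it at 3 dpi. PTBP1, on chromosome 19 from 797075 to 812327 in GRCh38, was at 111, 112 and 124 FPKM in the sh-Luci-3d libraries, at 66.2, 64.4 and 61.0 FPKM in sh-Ptbp1-3d, and at 49.7, 50.7 and 51.0 FPKM in sh-Ptbp1-7d. The 3 groups did not overlap. PTBP1 stood at 55.2% of the sh-Luci-3d mean at 3 dpi, with a log2 fold change of -0.85 (SE 0.07, limma adjusted p = 0.00314), and at 43.6% at 7 dpi, with -1.19 (SE 0.07, limma adjusted p = 3.77e-07). PTBP2, its paralog, was at 6.65, 8.16 and 4.80 FPKM in sh-Luci-3d, at 17, 17.1 and 19.4 FPKM in sh-Ptbp1-3d, and at 25.5, 27.0 and 28.7 FPKM in sh-Ptbp1-7d. It was the 1 gene past both thresholds at 3 dpi, with a log2 fold change of 1.46 (SE 0.16, limma adjusted p = 0.00857), and it rose by 2.06 over sh-Luci-3d at 7 dpi (SE 0.16, limma adjusted p = 2.16e-06). Of the other 10 PTBP family and neural splicing genes that reached the minimum, none passed both thresholds at either day, and the median of all 12 was -0.19 at 7 dpi and -0.01 at 3 dpi.

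TMEM60 and SRSF3 were the remaining genes past the FDR at 3 dpi, and both are named because their values were seen. TMEM60, a transmembrane protein gene, was at 10.9, 10.9 and 9.93 FPKM in sh-Luci-3d, at 19.2, 19.3 and 18.3 FPKM in sh-Ptbp1-3d, and at 18.4, 20.4 and 21.8 FPKM in sh-Ptbp1-7d. Its libraries of 3 and 7 dpi overlapped each other and lay above all sh-Luci-3d libraries, with log2 fold changes of 0.84 at 3 dpi (limma adjusted p = 0.00857) and 0.93 at 7 dpi (limma adjusted p = 9.03e-06), so its difference was complete by 3 dpi. SRSF3, an SR protein that acts in splicing, was at 109, 107 and 98.2 FPKM in sh-Luci-3d, at 63.2, 66.4 and 62.5 FPKM in sh-Ptbp1-3d, and at 97.6, 106 and 94.6 FPKM in sh-Ptbp1-7d. It was lower at 3 dpi alone, with a log2 difference of -0.71 (limma adjusted p = 0.00857) against -0.08 at 7 dpi (limma adjusted p = 0.41), and it was higher at 7 dpi than at 3 dpi by 0.63 (limma adjusted p = 5.23e-05). Thus the few genes that had moved by 3 dpi followed separate courses afterwards: PTBP1 and PTBP2 went further, TMEM60 stayed, and SRSF3 came back to overlap sh-Luci-3d.

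The outcome at 3 dpi depended on single libraries. Without sh-Luci-3d replicate 3, 21 genes passed both thresholds at 3 dpi, 15 of them higher, and without sh-Luci-3d replicate 1 or any of the sh-Ptbp1-3d libraries 0 genes did. PTBP2 was 1 of the 21. Once GC content and transcript length were corrected for, 4 genes passed, namely PTBP2, GPC2, REC8 and GGT1. GPC2, a glypican of developing neurons, was at 1.11, 0.739 and 1.08 FPKM in sh-Luci-3d, at 2.40, 2.01 and 2.35 FPKM in sh-Ptbp1-3d and at 5.21, 5.01 and 4.15 FPKM in sh-Ptbp1-7d, and its 3 groups did not overlap.

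Gene lists, which group genes by known function, were read in the same way. Over the 26 lists drawn in the plot of lists by library, the median log2 fold change at 3 dpi lay between -0.17 and 0.19, and no gene of any list passed both thresholds there apart from PTBP2. At 7 dpi the medians of the same lists ran from -1.28 for mitosis to 2.11 for MHC class I presentation. Over all 11374 genes the median log2 fold change was 0.08 at 7 dpi and 0.01 at 3 dpi.

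Genes induced by interferon and genes of MHC class I presentation, which displays peptides at the cell surface, rose most. Of 46 interferon-stimulated genes, 40 rose and 0 fell at 7 dpi (87.0%, against 8.26% of all 11374 genes that rose), with a median log2 fold change of 1.84. Of 20 genes of MHC class I presentation, 18 rose (90.0%) and 0 fell, with a median of 2.11. The corresponding medians at 3 dpi were -0.17 and -0.02. Together these 66 genes held 1.24%, 1.63% and 1.69% of the FPKM summed over genes and assembled loci in sh-Luci-3d, 1.38%, 1.40% and 1.61% in sh-Ptbp1-3d, and 12.8%, 12.9% and 12.6% in sh-Ptbp1-7d. The share at 3 dpi lay within that of sh-Luci-3d.

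HLA-B, a class I heavy chain gene on chromosome 6 from 31269491 to 31357188, had the largest rise of all. It was at 13.5, 19.7 and 20.7 FPKM in sh-Luci-3d, at 16.2, 19.3 and 23.3 FPKM in sh-Ptbp1-3d and at 4470, 4500 and 4690 FPKM in sh-Ptbp1-7d. Only the 7 dpi libraries stood apart, with a 253-fold higher mean and a log2 fold change of 8.0 (SE 0.16, limma adjusted p = 5.98e-10). HLA-C, a second such gene, rose from 74.6 ± 13.3 to 3170 ± 120 FPKM, and HLA-F from 10.8 ± 2.94 to 302 ± 10.2 FPKM (SD, n = 3 each). Class I genes are close in sequence, and the annotated spans of HLA-B and HLA-C overlap on chromosome 6, so how the reads were split among them is uncertain. B2M, the light chain that all of them pair with, was at 591, 698 and 619 FPKM in sh-Luci-3d, at 599, 656 and 653 FPKM in sh-Ptbp1-3d and at 5320, 5500 and 6140 FPKM in sh-Ptbp1-7d, a log2 fold change of 3.15 (SE 0.10, limma adjusted p = 5.83e-09).

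Among the interferon-stimulated genes, IFI6 had the highest mean of the 11374 genes at 7 dpi. It was at 447, 661 and 1050 FPKM in sh-Luci-3d, at 780, 748 and 860 FPKM in sh-Ptbp1-3d and at 11700, 11200 and 10600 FPKM in sh-Ptbp1-7d. Its sh-Luci-3d libraries spread widely and enclosed the 3 dpi values, and all 7 dpi libraries lay above them, by 4.04 on the log2 scale (limma adjusted p = 3.1e-07). IFI6, a small mitochondrial and reticulum protein with antiviral and anti-apoptotic roles, held 0.184% of summed FPKM in sh-Luci-3d and 3.04% in sh-Ptbp1-7d. IFITM1, which restricts viral entry, was at 67.0, 122 and 129 FPKM in sh-Luci-3d, at 92.2, 101 and 142 FPKM in sh-Ptbp1-3d and at 3680, 3770 and 4150 FPKM in sh-Ptbp1-7d, a log2 fold change of 5.24 (SE 0.23, limma adjusted p = 4.38e-08). RTP4 was at 0.105, 0.0621 and 0.0989 FPKM in sh-Luci-3d and at 14.0, 13.8 and 15.9 FPKM in sh-Ptbp1-7d. XAF1, a factor that antagonises XIAP, rose from 0.71 ± 0.273 to 43.6 ± 1.58 FPKM. LY6E, a GPI-anchored surface protein, rose from 23 ± 8.39 to 2150 ± 112 FPKM and APOL1, an apolipoprotein, from 0.735 ± 0.173 to 28.8 ± 1.40 FPKM (SD, n = 3 each). None of these genes passed the test at 3 dpi, where their log2 fold changes lay between -0.30 for XAF1 and 0.23 for IFI6.

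The following 4 promoter stretches of these genes are shown because they hold the interferon-stimulated response element (ISRE), a sequence known from the promoters of genes that interferon induces. Each is the 250 bases before the RefSeq start of the gene in GRCh38.p14, read 5′ to 3′ on the strand of the gene, with matches in capitals, a match being GAAA, any 2 bases and GAAA again. They were chosen after their sequence was seen. They lie at chr11:313790-314039 for IFITM1, chr3:187368135-187368384 for RTP4, chr1:27672193-27672442 on the minus strand for IFI6, and chr15:44711267-44711516 for B2M.
IFITM1: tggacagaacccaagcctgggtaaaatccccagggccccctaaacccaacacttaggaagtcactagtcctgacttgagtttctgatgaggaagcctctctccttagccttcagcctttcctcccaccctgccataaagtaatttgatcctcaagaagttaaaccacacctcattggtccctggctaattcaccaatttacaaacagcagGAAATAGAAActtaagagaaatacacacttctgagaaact
RTP4: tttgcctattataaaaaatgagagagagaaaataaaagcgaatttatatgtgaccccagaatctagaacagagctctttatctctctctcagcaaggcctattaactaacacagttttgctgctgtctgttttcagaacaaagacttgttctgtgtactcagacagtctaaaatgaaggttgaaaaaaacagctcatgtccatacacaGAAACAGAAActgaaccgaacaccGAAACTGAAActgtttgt
IFI6: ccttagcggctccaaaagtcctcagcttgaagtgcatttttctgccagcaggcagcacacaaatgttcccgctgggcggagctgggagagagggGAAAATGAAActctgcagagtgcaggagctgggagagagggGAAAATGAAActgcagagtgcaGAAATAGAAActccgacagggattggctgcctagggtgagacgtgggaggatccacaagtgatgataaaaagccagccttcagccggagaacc
B2M: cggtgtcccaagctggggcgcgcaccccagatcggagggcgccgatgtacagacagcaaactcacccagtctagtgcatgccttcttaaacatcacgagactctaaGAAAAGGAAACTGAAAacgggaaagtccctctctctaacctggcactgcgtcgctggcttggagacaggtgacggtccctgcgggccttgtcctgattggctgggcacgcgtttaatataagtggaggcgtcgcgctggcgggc
IFITM1 holds 1 match, which begins 40 bases before the start, RTP4 holds 2 matches, IFI6 holds 3 matches, and B2M holds 2 matches that overlap each other. Both strands were searched. The motif was found in 20 of the 35 interferon-stimulated genes with a promoter in the RefSeq table (57.1%), in 7 of 16 genes of MHC class I presentation (43.8%), and in 3.07% of all 27305 promoters of the table. Of the 697 genes called higher that had a promoter there it was found in 52 (7.46%), against 11 of 522 genes called lower (2.11%) and 156 of 8044 genes not called (1.94%). A match describes the letters of this window and is no measurement of binding, and starts in the gene annotation may lie upstream of those in RefSeq.

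Genes downstream of kinase signalling formed the next group of rises. Of 20 genes that report or feed back on ERK signalling, 13 rose (65.0%, against 8.26% of all genes) and 2 fell (against 5.65%). Their median log2 fold change was 1.32 at 7 dpi and 0.03 at 3 dpi. SPRY4, an inhibitor of receptor tyrosine kinase signalling, was at 2.10, 2.12 and 1.26 FPKM in sh-Luci-3d, at 1.98, 1.85 and 2.06 FPKM in sh-Ptbp1-3d and at 29.5, 27.9 and 24.7 FPKM in sh-Ptbp1-7d. Its 3 dpi libraries lay within the range of sh-Luci-3d, and those of 7 dpi were all higher, a log2 fold change of 3.87 (SE 0.18, limma adjusted p = 6.04e-08). SPRY1 of the same family rose from 1.43 ± 0.0958 to 16.7 ± 1.11 FPKM, and DUSP6, the phosphatase that inactivates ERK, from 0.874 ± 0.181 to 12.4 ± 0.763 FPKM (SD, n = 3 each).

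Of 20 genes induced by cAMP and CREB, 9 rose (45.0%, against 8.26% of all genes) and 0 fell, with medians of 0.89 at 7 dpi and 0.08 at 3 dpi. Forskolin, a component of the induction medium, raises cAMP. RGS2, a regulator of G protein signalling, was at 4.33, 4.47 and 4.31 FPKM in sh-Luci-3d, at 3.67, 3.83 and 3.69 FPKM in sh-Ptbp1-3d and at 36.0, 40.3 and 43.0 FPKM in sh-Ptbp1-7d. It rose at 7 dpi by 3.15 on the log2 scale (SE 0.09, limma adjusted p = 3.35e-09), while all its 3 dpi libraries lay slightly under those of sh-Luci-3d without passing the test (limma adjusted p = 0.652). The phosphodiesterases PDE10A and PDE4B, which degrade cyclic nucleotides, rose from 0.537 ± 0.167 to 4.94 ± 0.713 FPKM and from 1.89 ± 0.36 to 8.60 ± 0.418 FPKM (SD, n = 3 each).

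Of 17 immediate early factors 5 rose (29.4%, against 8.26% of all genes) and 0 fell, while 3 rose after the GC and length correction, and 4 rose and 1 fell with median-ratio scaling. BTG2, an anti-proliferative gene that also belongs to the p53 targets, was at 0.307, 0.403 and 0.371 FPKM in sh-Luci-3d, at 0.666, 0.670 and 0.818 FPKM in sh-Ptbp1-3d and at 4.94, 4.72 and 4.50 FPKM in sh-Ptbp1-7d. Its 3 groups did not overlap, but only the 7 dpi difference passed the test (log2 fold change 3.39, SE 0.16, limma adjusted p = 7.97e-08), since that of 3 dpi was 0.83 with an adjusted p of 0.271. The AP-1 subunit FOS rose from 0.342 ± 0.270 to 2.82 ± 0.377 FPKM and the zinc finger factor EGR1 from 2.89 ± 0.368 to 18 ± 0.808 FPKM (SD, n = 3 each).

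Of 21 FOXO factors and genes they induce, 6 rose (28.6%, against 8.26% of all genes) and 2 fell, and 10 rose with TPM scaling. TXNIP, which binds thioredoxin and limits glucose uptake, was at 12.1, 12.2 and 9.23 FPKM in sh-Luci-3d, at 8.48, 11.8 and 12.5 FPKM in sh-Ptbp1-3d and at 219, 246 and 224 FPKM in sh-Ptbp1-7d, a log2 fold change of 4.36 (SE 0.15, limma adjusted p = 9.19e-09). Its 3 dpi libraries overlapped those of sh-Luci-3d, and all its 7 dpi libraries lay above them. The factors FOXO1 and FOXO6 rose from 1.61 ± 0.0726 to 6.56 ± 0.498 FPKM and from 0.463 ± 0.294 to 3.84 ± 0.185 FPKM. In sh-Ptbp1-3d FOXO6 had 0.919, 0.619 and 1.40 FPKM, which overlapped sh-Luci-3d through replicate 3 of the latter at 0.802 FPKM, and it was among the 21 genes called at 3 dpi without that library.

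Some stress genes rose as well. Of 26 genes of the unfolded protein and integrated stress responses, 8 rose (30.8%, against 8.26% of all genes) and 0 fell, with a median log2 fold change of 0.75 at 7 dpi and -0.04 at 3 dpi. The chaperone HSPA5 was at 130, 133 and 128 FPKM in sh-Luci-3d and at 339, 357 and 353 FPKM in sh-Ptbp1-7d, the factor XBP1 rose from 25.4 ± 0.206 to 76 ± 6.6 FPKM, and the co-chaperone DNAJB9 from 6.54 ± 0.518 to 24.2 ± 0.320 FPKM (SD, n = 3 each). Of 22 targets of p53, 5 rose (22.7%) and 2 fell (9.09%, against 5.65% of all genes), with a median of 0.19 at 7 dpi and 0.08 at 3 dpi. After BTG2 the rises were led by the cytokine GDF15 with a log2 fold change of 2.55 and the kinase PLK3 with 1.59. Of 15 secreted inflammatory factors and NF-kB feedback genes, 5 rose (33.3%) and 2 fell (13.3%). The chemokine CCL5 rose from 0.207 ± 0.0418 to 6.17 ± 1.09 FPKM and the cytokine LIF from 3.87 ± 0.988 to 11.6 ± 0.713 FPKM (SD, n = 3 each).

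Of 10 BMP and SMAD target genes that reached the minimum, 4 rose (40.0%, against 8.26% of all genes) and 1 fell (against 5.65%). Their median log2 fold change was 0.8 at 7 dpi and 0.12 at 3 dpi. ID1, a classical BMP target, was at 29.6, 31.2 and 28.4 FPKM in sh-Luci-3d, at 29.1, 32.1 and 25.0 FPKM in sh-Ptbp1-3d and at 10, 12 and 12 FPKM in sh-Ptbp1-7d, and fell by 1.39 on the log2 scale (SE 0.11, limma adjusted p = 2.55e-06). The homeobox gene DLX2 and the Notch and BMP target HEY1 rose by 1.43 and 1.37. Of 52 lysosomal genes 6 rose (11.5%, against 8.26% of all genes) and 0 fell, while with median-ratio scaling 4 rose and 4 fell, and the median log2 fold change was 0.07, or -0.03 with that scaling. The rises were led by the cathepsin CTSF with 1.82, the sphingomyelinase SMPD1 with 1.54 and the glucosidase GAA with 1.33. IGFBP4, which binds insulin-like growth factors and stood in no list, was at 0.989, 0.659 and 1.01 FPKM in sh-Luci-3d, at 1.21, 0.886 and 1.62 FPKM in sh-Ptbp1-3d and at 59.7, 62.1 and 61.5 FPKM in sh-Ptbp1-7d, a log2 fold change of 5.98 (SE 0.20, limma adjusted p = 9.12e-09).

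Guidance receptors and synaptic genes rose in part. Of 47 axon guidance ligands and receptors 11 rose and 2 fell (23.4% and 4.26%, against 8.26% and 5.65% of all 11374 genes), with a median log2 fold change of 0.55 at 7 dpi and 0.06 at 3 dpi. UNC5B, a netrin receptor, was at 0.319, 0.248 and 0.271 FPKM in sh-Luci-3d, at 0.426, 0.472 and 0.504 FPKM in sh-Ptbp1-3d and at 5.76, 5.53 and 5.77 FPKM in sh-Ptbp1-7d. The 3 groups did not overlap. At 7 dpi UNC5B had risen by 3.93 on the log2 scale (SE 0.16, limma adjusted p = 2.82e-08), and its difference of 0.58 at 3 dpi did not pass the test (limma adjusted p = 0.474). Its relative UNC5D rose from 0.190 ± 0.0683 to 3.75 ± 0.520 FPKM, and SEMA6A, a transmembrane semaphorin, from 1.26 ± 0.232 to 16.1 ± 0.405 FPKM (SD, n = 3 each). DAPK1, a calmodulin-regulated kinase linked to UNC5 receptors, was at 0.400, 0.417 and 0.237 FPKM in sh-Luci-3d, at 0.316, 0.383 and 0.423 FPKM in sh-Ptbp1-3d and at 2.31, 2.67 and 2.32 FPKM in sh-Ptbp1-7d. It differed at 7 dpi alone, with a log2 fold change of 2.51 (SE 0.22, limma adjusted p = 5.34e-06).

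Genes of the neuronal cytoskeleton and identity moved in both directions. Of 35 listed, 15 reached the minimum, of which 3 rose (20.0%, against 8.26% of all genes) and 3 fell (20.0%, against 5.65%). Their median log2 fold change was -0.06, which was 0.01 with TPM scaling. TUBB3, which encodes the neuronal tubulin TUJ1, was at 237, 250 and 297 FPKM in sh-Luci-3d, at 322, 314 and 314 FPKM in sh-Ptbp1-3d and at 116, 112 and 127 FPKM in sh-Ptbp1-7d. Its 3 dpi libraries lay above all sh-Luci-3d libraries without passing the test (log2 fold change 0.29, limma adjusted p = 0.583), and its 7 dpi libraries lay below them all, a fall of 1.14 on the log2 scale (SE 0.09, limma adjusted p = 3.45e-06). MAP2, the dendritic microtubule-associated protein, was at 26.6, 22.8 and 17.7 FPKM in sh-Luci-3d, at 18.9, 18.1 and 24.1 FPKM in sh-Ptbp1-3d and at 41.4, 41.2 and 34.0 FPKM in sh-Ptbp1-7d. Its libraries did not overlap at 7 dpi, and its log2 fold change of 0.81 (SE 0.16, limma adjusted p = 0.0015) passed the FDR but stayed under the fold threshold.

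SCG2, a granin of secretory vesicles, had the largest rise within the list of neuronal cytoskeleton and identity. It was at 2.75, 2.75 and 2.37 FPKM in sh-Luci-3d, at 1.89, 1.87 and 1.94 FPKM in sh-Ptbp1-3d and at 50.9, 51.5 and 45.9 FPKM in sh-Ptbp1-7d, a log2 fold change of 4.18 (SE 0.10, limma adjusted p = 1.11e-09), and its 3 dpi libraries were all below those of sh-Luci-3d without passing the test (limma adjusted p = 0.356). MAPT, which encodes tau, was at 0.356, 0.422 and 0.373 FPKM in sh-Luci-3d, at 0.387, 0.391 and 2.89 FPKM in sh-Ptbp1-3d and at 3.74, 3.61 and 2.51 FPKM in sh-Ptbp1-7d. It rose at 7 dpi by 2.79 (SE 0.57, limma adjusted p = 0.00198), and only replicate 3 of sh-Ptbp1-3d was near the 7 dpi level. That library also held STMN2, DCX, INA and NEUROD2, which were near 0 at 7 dpi, and without it MAPT differed by 0.02 on the log2 scale at 3 dpi (limma adjusted p = 0.997). L1CAM, a neural adhesion molecule, fell from 15.4 ± 0.707 to 2.39 ± 0.379 FPKM (SD, n = 3 each), which on the log2 scale is -2.65.

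Of 42 listed synaptic genes 15 reached the minimum, and 6 of these rose (40.0%, against 8.26% of all genes) and 0 fell. CAMK2B, a kinase of the postsynaptic density, was at 0, 0.023 and 0.0301 FPKM in sh-Luci-3d, at 0.0867, 0.0407 and 0.423 FPKM in sh-Ptbp1-3d and at 2.29, 1.98 and 1.82 FPKM in sh-Ptbp1-7d. SNAP25, a SNARE protein of synaptic vesicle fusion, was at 1.22, 1.42 and 1.17 FPKM in sh-Luci-3d, at 2.05, 2.14 and 3.86 FPKM in sh-Ptbp1-3d and at 4.13, 4.84 and 4.0 FPKM in sh-Ptbp1-7d. Neither gene's groups overlapped, and replicate 3, the library with neuronal RNA that no other library had, was the highest of sh-Ptbp1-3d for both. Without it the log2 differences at 3 dpi were 0.47 for CAMK2B and 0.69 for SNAP25 (limma adjusted p = 0.852 and 0.599). CAMK2B rose at 7 dpi by 4.18 on the log2 scale (limma adjusted p = 1.74e-05). SNAP25 rose at 7 dpi by 1.69 (SE 0.22, limma adjusted p = 9.16e-05), and its 3 dpi difference of 0.97 did not pass the test (limma adjusted p = 0.36). DLG4, the postsynaptic scaffold PSD-95, rose from 8.68 ± 1.06 to 23.8 ± 3.03 FPKM (SD, n = 3 each). Most defining neuronal genes stayed low: 20 of the 35 neuronal genes and 25 of the 42 synaptic genes were under 1 FPKM in sh-Ptbp1-7d, against 21 and 29 in sh-Luci-3d.

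The falls were led by mitosis. All 54 listed genes of mitosis reached the minimum, 38 of them fell (70.4%, against 5.65% of all 11374 genes) and 0 rose, and all 54 were lower at an FDR below 0.01 without the fold threshold. Their median log2 fold change was -1.28 at 7 dpi and -0.06 at 3 dpi. MKI67, which encodes the proliferation marker KI67, was at 22.2, 24.3 and 19.0 FPKM in sh-Luci-3d, at 17.6, 18.5 and 17.1 FPKM in sh-Ptbp1-3d and at 8.33, 8.72 and 6.94 FPKM in sh-Ptbp1-7d. Its 3 groups did not overlap. MKI67 fell at 7 dpi by 1.44 (SE 0.11, limma adjusted p = 2.71e-06), and its difference of -0.29 at 3 dpi did not pass the test (limma adjusted p = 0.623). ANLN, the anillin of the contractile ring, fell from 44.0 ± 8.27 to 8.87 ± 0.175 FPKM, CDC20, the activator of the anaphase-promoting complex, from 80.1 ± 8.95 to 19.0 ± 0.357 FPKM, and the kinesin KIF20A from 38.7 ± 4.06 to 9.70 ± 0.553 FPKM (SD, n = 3 each).

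DNA replication genes were lower by less. Of 48 genes 9 fell (18.8%, against 5.65% of all genes) and 0 rose, with a median of -0.62 at 7 dpi and -0.03 at 3 dpi. By the FDR alone 34 were lower, against 18.0% of all genes. TK1 and TYMS, enzymes of thymidine nucleotide synthesis, fell from 107 ± 23.2 to 30.3 ± 1.15 FPKM and from 131 ± 9.28 to 50.1 ± 1.28 FPKM, and the replication factor GINS4 from 9.26 ± 0.452 to 3.58 ± 0.166 FPKM (SD, n = 3 each). Among 13 genes of G1 control 2 rose (15.4%, against 8.26% of all genes). These were the CDK inhibitor CDKN1A, from 31.2 ± 4.72 to 77.7 ± 2.76 FPKM, and the cyclin CCND3, from 34.1 ± 4.57 to 73.7 ± 1.04 FPKM (SD, n = 3 each). With a correction for GC content and length the log2 fold change of CCND3 was 0.96, under the fold threshold.

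The promoters of 2 mitotic genes are shown for the cell cycle genes homology region (CHR), the letters TTTGAA through which the MuvB complexes act on late cell cycle genes. The stretches are the 250 bases before the RefSeq start in GRCh38.p14 on the strand of the gene, at chr7:36389612-36389861 for ANLN and at chr10:128126424-128126673 on the minus strand for MKI67, with TTTGAA on either strand in capitals.
ANLN: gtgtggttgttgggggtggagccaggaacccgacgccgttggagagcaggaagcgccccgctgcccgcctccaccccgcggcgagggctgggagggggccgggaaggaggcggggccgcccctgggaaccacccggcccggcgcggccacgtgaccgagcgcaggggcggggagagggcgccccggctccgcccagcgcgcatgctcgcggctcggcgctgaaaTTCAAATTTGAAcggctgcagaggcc
MKI67: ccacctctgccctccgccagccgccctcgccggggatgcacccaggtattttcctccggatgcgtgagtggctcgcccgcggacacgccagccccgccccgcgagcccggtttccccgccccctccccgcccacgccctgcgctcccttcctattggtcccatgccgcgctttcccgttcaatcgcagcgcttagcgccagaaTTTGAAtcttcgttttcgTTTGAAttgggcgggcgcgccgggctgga
ANLN holds 2 matches, 1 on each strand, and MKI67 holds 2. In the gene annotation MKI67 starts at 128126385, downstream of its RefSeq start, and its RefSeq window did not read into an annotated transcript. These letters were found in 27 of 45 mitotic genes with a promoter in the table (60.0%), in 1 of 40 DNA replication genes (2.5%) and in 13.6% of all 27305 promoters. They were found in 72 of 522 genes called lower (13.8%), in 65 of 697 genes called higher (9.33%) and in 626 of 8044 genes not called (7.78%).

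Smaller shares of the lists of biosynthesis and metabolism fell. Of 24 genes of cholesterol synthesis and uptake 8 fell (33.3%, against 5.65% of all genes) and 0 rose, with a median log2 fold change of -0.80 at 7 dpi and 0.13 at 3 dpi. The squalene synthase FDFT1 was at 328, 350 and 342 FPKM in sh-Luci-3d, at 389, 389 and 351 FPKM in sh-Ptbp1-3d and at 74.2, 77.1 and 79.9 FPKM in sh-Ptbp1-7d, where it fell by 2.14 on the log2 scale. The thiolase ACAT2 fell from 86.0 ± 0.136 to 19.9 ± 0.439 FPKM (SD, n = 3 each). At 3 dpi both lay above all sh-Luci-3d libraries without passing the test, with log2 fold changes of 0.14 and 0.05.

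Cytosolic ribosomal protein genes fell in part: of 79 genes 26 fell (32.9%, against 5.65% of all genes) and 0 rose, with a median of -0.90 at 7 dpi and 0.06 at 3 dpi. They held 10.4% ± 0.925 of summed FPKM in sh-Luci-3d, 10.7% ± 0.162 in sh-Ptbp1-3d and 5.68% ± 0.0604 in sh-Ptbp1-7d (SD, n = 3 each). RPS19 fell from 704 ± 110 to 181 ± 10.7 FPKM and RPL12 from 967 ± 33.8 to 293 ± 8.75 FPKM (SD, n = 3 each). The count of falls depended on the scaling, with 39 after median-ratio scaling and 13 after quantile normalization, and ribosomal protein genes have many processed copies with which reads may be shared. Respiratory chain subunits were counted by the genome that encodes them. Of 13 encoded in mitochondrial DNA 4 fell (30.8%, against 5.65% of all genes) and 0 rose, with a median of -0.74. Of 53 encoded in the nucleus 0 fell and 0 rose by limma at both thresholds (1 fell with median-ratio scaling), with a median of -0.07 whose sign changed with TPM scaling, and 7 were lower and 2 higher by the FDR alone. MT-ATP6, a subunit of ATP synthase, was at 6350, 6670 and 5010 FPKM in sh-Luci-3d, at 5910, 6010 and 5590 FPKM in sh-Ptbp1-3d and at 1960, 1980 and 2590 FPKM in sh-Ptbp1-7d. It fell most in FPKM, followed among the largest falls by MT-CO3, VIM and FTL, the ferritin light chain, which was at 4320 ± 137 and 1680 ± 155 FPKM (SD, n = 3 each). MT-ATP8 overlaps MT-ATP6, and without sh-Luci-3d replicate 1 or 2, or without sh-Ptbp1-7d replicate 1 or 2, only 2 mitochondrial genes passed.

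Of 30 genes of glycolysis and hypoxia 6 fell (20.0%, against 5.65% of all genes) and 1 rose (3.33%, against 8.26%), with medians of -0.45 at 7 dpi and -0.02 at 3 dpi. The glycolytic enzyme PKM was at 1400, 1370 and 1510 FPKM in sh-Luci-3d, at 1440, 1400 and 1350 FPKM in sh-Ptbp1-3d and at 551, 559 and 574 FPKM in sh-Ptbp1-7d, a fall of 1.34 (SE 0.08, limma adjusted p = 3.71e-07). The hypoxia-inducible genes NDRG1 and CA9 fell by 1.98 and 1.45. Together all 32 listed genes, of which these 30 reached the minimum, held 2.87% of summed FPKM in sh-Luci-3d, 2.82% in sh-Ptbp1-3d and 1.57% in sh-Ptbp1-7d.

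Contractile and matrix genes fell in some members and not in others. Of 28 actomyosin genes and YAP and SRF targets 6 fell (21.4%, against 5.65% of all genes) and 1 rose (3.57%, against 8.26%), with a median of -0.49. The actin-binding genes TAGLN2 and FLNA fell from 582 ± 39.9 to 138 ± 1.52 FPKM and from 444 ± 35.8 to 106 ± 11.7 FPKM, and caldesmon, CALD1, from 8.68 ± 0.560 to 1.45 ± 0.138 FPKM (SD, n = 3 each). Of 41 matrix proteins and integrins 8 fell (19.5%) and 6 rose (14.6%), and their median of 0.09 was -0.01 with a correction for GC content and length. LOXL2, a collagen cross-linking oxidase, was at 184, 177 and 191 FPKM in sh-Luci-3d, at 182, 186 and 174 FPKM in sh-Ptbp1-3d and at 27.5, 25.2 and 22.4 FPKM in sh-Ptbp1-7d, a fall of 2.88 (SE 0.08, limma adjusted p = 3.5e-09). The laminin chain LAMB3 and the fibrillin FBN1 fell by 2.35 and 2.29.

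The largest falls came from genes of mixed roles. KRT15, an epithelial keratin at 41513743 to 41522529 of chromosome 17, was at 82.3, 78.7 and 99 FPKM in sh-Luci-3d, at 87.6, 95.9 and 78.3 FPKM in sh-Ptbp1-3d and at 0.0998, 0.230 and 0.230 FPKM in sh-Ptbp1-7d. It went nearly silent between the 2 days, with a log2 fold change of -8.27 (SE 0.18, limma adjusted p = 9.67e-10) at 7 dpi and of 0.01 at 3 dpi. STRA6, a retinol transporter, fell from 57.2 ± 4.22 to 4.43 ± 0.308 FPKM, AHNAK, a giant scaffold protein, from 47.5 ± 6.13 to 4.63 ± 1.53 FPKM, the interleukin-7 receptor IL7R from 14.5 ± 3.03 to 0.817 ± 0.224 FPKM, and the transporter SLC12A8 from 3.13 ± 0.564 to 0.0632 ± 0.0260 FPKM (SD, n = 3 each). The chemokine CCL26, at 1.98, 2.32 and 4.07 FPKM in sh-Luci-3d, and SPANXB1, of a testis-expressed family, at 2.15, 2.29 and 1.71 FPKM, were listed at 0 in all sh-Ptbp1-7d libraries. NME1-NME2, a readthrough of NME1 and NME2 that shares its reads with both, was at 66.1, 42.3 and 42.2 FPKM in sh-Luci-3d and at 0, 24.2 and 0 FPKM in sh-Ptbp1-7d, and its fall is uncertain since the adjusted p of 0.00843 lay above 0.01 in 13 of the alternatives.

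The labelled cell type was checked with markers. Of 10 astroglial markers of U251, GFAP, AQP4 and S100B were under 1 FPKM in both groups. Their summed FPKM, most of it from VIM, was 4680 to 4800 in sh-Luci-3d, 4760 to 5080 in sh-Ptbp1-3d and 1520 to 1640 in sh-Ptbp1-7d. VIM, which encodes the intermediate filament vimentin, was at 4210, 4090 and 4200 FPKM in sh-Luci-3d, at 4450, 4490 and 4210 FPKM in sh-Ptbp1-3d and at 1090, 1160 and 1250 FPKM in sh-Ptbp1-7d, and fell by 1.84 (SE 0.09, limma adjusted p = 1.25e-07). Of 16 astroglial and stem-like glioma genes that reached the minimum 1 rose (6.25%, against 8.26% of all genes) and 2 fell (12.5%, against 5.65%). Their median log2 fold change was 0.41 at 7 dpi and 0.17 at 3 dpi. The hyaluronan receptor CD44 fell from 182 ± 23.1 to 62.3 ± 2.12 FPKM, and the glutamate transporter SLC1A3 rose from 1.99 ± 0.437 to 7.66 ± 0.400 FPKM (SD, n = 3 each). The stem cell factor SOX2 was at 101, 94.6 and 121 FPKM in sh-Luci-3d, at 126, 126 and 121 FPKM in sh-Ptbp1-3d and at 149, 148 and 138 FPKM in sh-Ptbp1-7d, and its log2 fold change of 0.46 (SE 0.09, limma adjusted p = 0.00184) at 7 dpi stayed under the fold threshold. Nestin, NES, had a mean of 40.5 ± 7.05 FPKM in sh-Luci-3d and 36.4 ± 7.49 FPKM at 7 dpi (SD, n = 3 each; limma adjusted p = 0.429). GFAP was at 0.375, 0.152 and 0.515 FPKM and at 0.118, 0.109 and 1.14 FPKM in these groups (limma adjusted p = 0.904). Of 26 markers of blood, microglia, endothelium and oligodendrocytes, 25 were under 1 FPKM in both groups and 8 were at 0 in all 6 libraries. Their sum was 11 to 12.6 FPKM in sh-Luci-3d and 16.8 to 19.4 FPKM in sh-Ptbp1-7d, most of it from CD68, a lysosomal protein of macrophages that other cells also express, at 10.1 ± 0.648 and 16.3 ± 1.32 FPKM (SD, n = 3 each).

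Other properties of the called genes were described without a test. The genes called higher had a median level of 3.40 FPKM in sh-Luci-3d and those called lower one of 17.8 FPKM, against 10.3 FPKM for genes not called. Median GC content of the transcripts was 52.7%, 49.9% and 49.2% in these classes, and median transcript length was 1985, 1755 and 1785 bases. Of the 1582 called genes 269 belonged to 1 or more of the 27 lists, which hold 742 of the 11374 genes. Among the 89 named genes called at 7 dpi, the 3 dpi and sh-Luci-3d libraries did not overlap for 18, against 10.5% of all 11374 genes, and 2 of the 89, PTBP1 and PTBP2, passed the FDR at 3 dpi. Most of the 89 were picked by their difference from these same sh-Luci-3d libraries, so the count of 18 cannot measure early change.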

How the data were processed

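RNA of U251 cells was sequenced in 9 libraries, 3 of each group (sh-Luci-3d, sh-Ptbp1-7d and sh-Ptbp1-3d). The authors deposited FPKM values, 1 column per library. The submitters' processing notes name HISAT2 and GRCh38, and the program and annotation behind the FPKM values are not given in the sources used here. A second deposited file holds positions of assembled loci and was not used. Groups came from the sample titles.

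Values were tested as log2(FPKM + 0.1) with limma 3.58.1 in R 4.3.3 (lmFit and eBayes with trend), over all 15551 genes and loci with a mean of at least 0.1 FPKM, in one model of 3 groups, with Benjamini-Hochberg adjustment over all of them. After the study's thresholds, calls needed more than a 2-fold change with an FDR under 0.01 (0.05 between the groups of 3 dpi). Tested on simulated data of the 7 dpi comparison with sh-Luci-3d, 192 of 200 changed genes among 15551 were recovered. These genes were set to differ by 1.5, 2 or 3 on the log2 scale, and 70 of 77 at 1.5 were recovered. Recovery of genes that differ by less than 1.5 was not tested. The real medians of the genes called higher and lower, 1.43 and -1.36, lie in that untested range. Of the 11374 genes 9263 matched a RefSeq promoter.

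The genes and the 27 lists of 913 genes were chosen with earlier results of these data known. Named were a panel of 11 genes, the 8 largest rises and 8 largest falls by log2 fold change and the 4 largest of each in FPKM among called genes without overlap, and up to 3 called genes of each list, of which some are not reported here. TMEM60, SRSF3, GPC2, REC8, GGT1, CD68, STMN2, STMN4, DCX, INA and NEUROD2 are outside this rule and were named after their values were seen. Alternatives covered the pseudocount, filter, scaling, GC and length correction, trend, groups in the model, thresholds, a replicate block and each library left out.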

Additional observations from a re-analysis of the deposited data

Results flagged for a closer look

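The deposited values also cover assembled loci without a gene symbol. These loci entered the limma model, its adjustment and the sums over genes and assembled loci, but no result above describes them separately. Of 1927 such loci tested with limma, 161 had more and 121 had less FPKM at 7 dpi than the sh-Luci-3d libraries. The thresholds were those used for genes. Together these loci made up 14.6%, the same share as the 14.6% of all 15551 genes and loci tested. What these loci are was not tested.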

How the results depend on the processing

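The count of 1582 genes called in sh-Ptbp1-7d against sh-Luci-3d ran from 1162 with a pseudocount of 1 to 1674 with TPM scaling, and from 1533 to 1627 with 1 library left out. That of sh-Ptbp1-7d against sh-Ptbp1-3d ran from 1153 to 1651. The median log2 fold change of all 11374 genes was 0.08 as deposited, -0.02 with median-ratio scaling and 0.16 with TPM scaling. The 1 gene called at 3 dpi became 4 genes with the GC and length correction, and 0 genes without the trend, with only the 2 groups compared or with the replicate block. With 1 library left out the count at 3 dpi ran from 0 to 21. The cause was not tested. Replicate numbers did not pair the libraries (correlations of deviations of same-numbered libraries -0.019 to 0.058), and the replicate block gave 1575, 0 and 1532 calls in the 3 comparisons. The difference of GFAP, which had not passed the test, was 0.047 with a pseudocount of 1 and ran from -0.975 to 0.308 with 1 library left out (0.147 without sh-Luci-3d replicate 3), and that of NES ran from -0.279 to 0.019. NME1-NME2 lost its call under 13 alternatives, MT-ATP8 under 6, and CCND3 and DLX2 under 1 each. Without counts, the precision of low FPKM values is unknown.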
